A study of Drosophila melanogaster with 24 samples.

Results

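The genes of glycolysis were followed in male *Drosophila melanogaster* through 3 thermal factors. Their members were chosen by name as the 10 genes *Hex-A*, *Hex-C*, *Pgi*, *Pfk*, *Tpi*, *Gapdh1*, *Pgk*, *Pglym78*, *Eno* and *Gpdh1*, and every probe set that carries 1 of these symbols alone was taken. This gave 13 of the 18769 probe sets tested, and 10 of the 11982 genes that have a probe set with a single symbol. *Gpdh1* has 4 probe sets and the other 9 genes have 1 each. A probe set is a group of short oligonucleotides on the array that reports the RNA of 1 gene or transcript.

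Glycolysis breaks glucose down to pyruvate in the cytosol. Its upper part spends ATP to phosphorylate and split the sugar, and its lower part, from glyceraldehyde 3-phosphate dehydrogenase onwards, regains ATP and yields NADH. Insect flight muscle draws on this pathway at very high rates and keeps the NADH in balance through glycerol 3-phosphate dehydrogenase rather than lactate, while the fat body, which stores glycogen and fat much as liver and adipose tissue do, feeds sugar into stores and into trehalose, the blood sugar of insects.

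Flies were reared from egg to adulthood at a mean of 25 or 15 °C, under a fluctuating or a constant regime. The fluctuating regimes ran daily between 22 and 30 °C or between 12 and 20 °C. All flies were males, 6 days old, from a laboratory population founded with flies caught in Denmark, and all spent 18 h at 20 °C before the assay. They were then either ramped from 20 °C at 0.1 °C per min and frozen at 35 °C, or kept at 20 °C and frozen at the same moment. Each of the 8 groups has 3 Affymetrix Drosophila Genome 2.0 arrays, for flies held in vials of 20. Each regime came from a single cabinet, so a regime and its cabinet cannot be told apart, and the p-values measure the spread between samples from 1 cabinet. Age was matched in days, so mean temperature and a possible difference in physiological age, which the paper mentions, cannot be told apart either. Levels are GC-RMA values on the log2 scale, on which a difference of 1 is a doubling, and each is a level of 1 array.

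Array 3 of the flies from the fluctuating 15 °C regime ramped to 35 °C was left out. Its values correlated with those of the other arrays at 0.208 to 0.216, against 0.969 to 0.998 among the other arrays, and their SD over probe sets was 1.21, against 2.68 to 2.76. Its group is left with 2 arrays, and 23 arrays entered the fit. The 5 heat shock protein genes measured had a summed level of 16.03 to 16.24 on the ramped arrays and 12.33 to 12.9 on the arrays kept at 20 °C, as the assay labels state. Array 1 of the constant 15 °C, 20 °C group carried egg shell and yolk transcripts, which males should lack: over 20 such genes its median was 4.88 above the other 2 arrays of its group. Leaving it out changed no call of a glycolytic gene for mean temperature or ramping averaged over contrasts, and the single contrasts it touched are named beside their result.

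The plot of each enzyme by array shows the levels from which the comparisons below are made. Over the 8 groups the means of *Hex-C* spanned 2.02 on the log2 scale, the widest range among the 13 probe sets, followed by *Gpdh1* 1636311_at with 1.53, *Pgi* with 0.92 and *Gapdh1* with 0.79. *Tpi*, which interconverts the triose phosphates, spanned 0.24, the narrowest range among them. The SD within a group was 0.0032 to 0.23 over the 13 probe sets.

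**Figure D1:**
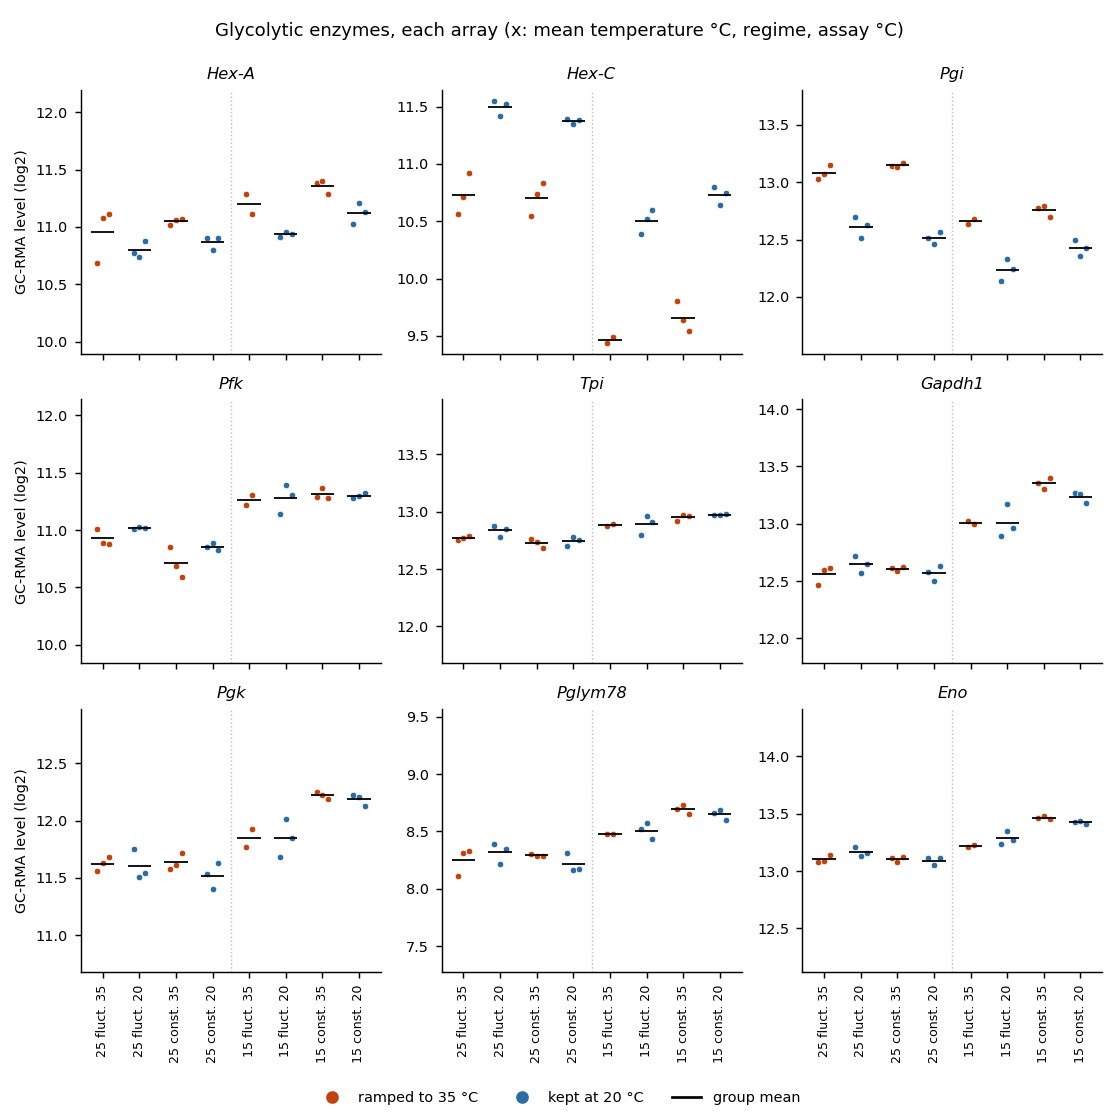
GC-RMA level (log2) of the 9 glycolytic genes with 1 probe set on each of the 23 arrays, with the groups along the x axis by mean temperature, regime and assay temperature; red points are arrays of flies ramped to 35 °C, blue points those kept at 20 °C, and lines are group means. All panels have the same height in log2 units, so *Hex-C* stands out by its range of 2.02 and *Tpi* by its range of 0.24, and for *Pfk*, *Gapdh1* and *Pglym78* all 12 points at 25 °C lie below all 11 points at 15 °C. Over all probe sets, 8.69% lie apart in this way.

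The first question was how the mean rearing temperature affected these genes. Averaged over the 4 contrasts that hold regime and assay fixed, 12 of the 13 probe sets differed between 25 and 15 °C, 4 of them higher and 8 lower at 25 °C. The same contrast called 56.0% of all probe sets, 28.9% higher and 27.1% lower. The *Hex-C* hexokinase and *Pgi* were higher at 25 °C, and *Hex-A*, *Pfk*, *Tpi*, *Gapdh1*, *Pgk*, *Pglym78* and *Eno*, which include all 5 measured enzymes from the triose phosphates downwards, were lower. Counted once per gene, 2 members were higher and 7 lower, with a median change of -0.23, against 35.5% called higher and 34.3% called lower over all 11982 genes, whose median change was 0.0.

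Hexokinase phosphorylates glucose on its entry to the pathway, and flies carry several genes for it. *Hex-C* is known as the form of the fat body and *Hex-A* as the form of flight muscle. In flies ramped to 35 °C, *Hex-C* had levels of 10.56, 10.71 and 10.92 in the fluctuating 25 °C regime and 10.55, 10.74 and 10.83 in the constant 25 °C regime, against 9.44 and 9.49 in the fluctuating 15 °C regime and 9.54, 9.64 and 9.8 in the constant 15 °C regime. In flies kept at 20 °C the levels of *Hex-C* were 11.42, 11.52 and 11.55 in the fluctuating and 11.35, 11.38 and 11.39 in the constant 25 °C regime, against 10.39, 10.52 and 10.6 in the fluctuating and 10.64, 10.75 and 10.8 in the constant 15 °C regime. Within each assay temperature, no array from 25 °C overlapped an array from 15 °C. The change was 0.99 ± 0.048 (SE), or 1.98-fold (adjusted p = 1.2e-12), and it was called in all 4 contrasts, at 0.64 to 1.26. *Hex-A* lay between 10.69 and 11.11 with a median of 10.9 over the 12 arrays at 25 °C, and between 10.91 and 11.4 with a median of 11.13 over the 11 arrays at 15 °C. These ranges overlapped, and *Hex-A* was lower by the mean of the contrasts, at -0.24 ± 0.046 (adjusted p = 0.00016). The changes of both hexokinase genes thus had opposite signs, and the change of *Hex-C* exceeded that of *Hex-A* by 1.22 (two-sided exact permutation test within regime and assay, p = 1.25e-05, the smallest value that the 80000 arrangements allow; adjusted p = 1.7e-05 over 14 such tests).

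*Pgi*, which turns glucose 6-phosphate into fructose 6-phosphate, was 0.32 ± 0.036 higher at 25 °C (1.25-fold, adjusted p = 1.1e-07). It was called in 3 of the 4 contrasts, and in the constant regime at 20 °C the change was 0.08 (adjusted p = 0.35). *Pfk*, the phosphofructokinase that commits the sugar to breakdown, had levels from 10.59 to 11.03 with a median of 10.88 at 25 °C and from 11.14 to 11.39 with a median of 11.3 at 15 °C. All 12 arrays at 25 °C lay below all 11 at 15 °C, as they did for 8.69% of all probe sets, and the change was -0.41 ± 0.038 (0.752-fold, adjusted p = 8e-09).

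Of the lower part, *Gapdh1*, which makes NADH, ranged from 12.47 to 12.72 with a median of 12.6 at 25 °C and from 12.89 to 13.4 with a median of 13.18 at 15 °C. Its arrays did not overlap, and at -0.56 ± 0.037 (0.681-fold, adjusted p = 9.5e-11) it fell furthest of the 10 genes. *Pglym78*, the phosphoglycerate mutase, lay at 8.11 to 8.39 with a median of 8.3 at 25 °C and at 8.43 to 8.73 with a median of 8.6 at 15 °C. The arrays of *Pglym78* did not overlap either, and its change was -0.31 ± 0.037 (adjusted p = 2.4e-07). *Pgk*, the phosphoglycerate kinase that regains the first ATP, was at 11.4 to 11.75 with a median of 11.59 at 25 °C and at 11.68 to 12.25 with a median of 12.13 at 15 °C. These ranges overlapped by a narrow margin, with a change of -0.43 ± 0.045 (adjusted p = 3.8e-08). *Eno*, the enolase, changed by -0.23 ± 0.029 (adjusted p = 4.4e-07) and *Tpi* by -0.16 ± 0.03 (adjusted p = 0.00011). The probe sets of *Pgi*, *Tpi* and *Eno* end in _s_at, which in the maker's naming allows probes shared with transcripts of other genes, and *Gapdh1* has a close paralog in *Gapdh2*, so these 4 values can hold some signal of relatives.

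By single contrasts, 11 of 13 probe sets were called in the constant regime at 20 °C, where 43.0% of all probe sets were, and 12 in the constant regime at 35 °C, where 43.6% were. In the fluctuating regime 8 were called at 20 °C, against 35.3% of all, and 8 at 35 °C, against 33.1%. Without array 2 of the fluctuating 15 °C, 20 °C group the count at 20 °C was 5, and without array 2 of the fluctuating 15 °C, 35 °C group the count at 35 °C was 4. Counted once per gene, 2 of 10 members were higher and 3 lower in both contrasts of the fluctuating regime. Over all genes 22.7% were called higher and 23.3% lower at 20 °C, and 17.4% and 24.1% at 35 °C. Called lower in all 4 contrasts were *Pfk*, *Gapdh1* and *Gpdh1* 1634893_at, and higher in all 4 were *Hex-C*, *Gpdh1* 1636311_at and *Gpdh1* 1625949_at, against 12.9% of all probe sets called lower and 8.89% called higher in all 4. *Hex-C*, *Gapdh1* and *Gpdh1* 1636311_at passed in all 4 also without any single array of the 23. *Pfk*, *Gpdh1* 1634893_at and *Gpdh1* 1625949_at lost at least 1 fluctuating contrast, with adjusted p up to 0.059, 0.19 and 0.15.

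Markers of tissues moved with the mean temperature too, in a comparison that called 35.5% of all genes higher and 34.3% lower at 25 °C. All 13 flight muscle genes measured were lower at 25 °C, and their summed level was 15.15 to 15.33 on arrays from 25 °C and 15.75 to 15.94 on arrays from 15 °C. The changes of these 13 genes had a median of -0.58. They ran from -3.39 (*fln*), -3.27 (*TpnC4*) and -1.9 (*Act88F*) to -0.17 (*Mf*). Of 11 fat body genes 9 were higher and 2 lower, with summed levels of 14.81 to 15.39 at 25 °C and 14.29 to 14.8 at 15 °C. Of 20 testis and accessory gland genes 18 were lower and 2 higher, with summed levels of 17.07 to 17.3 at 25 °C and 17.38 to 17.57 at 15 °C. Their part in the changes of the glycolytic genes was not tested. In whole flies, fewer cells of a tissue and less RNA per cell cannot be told apart.

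**Figure D2:**
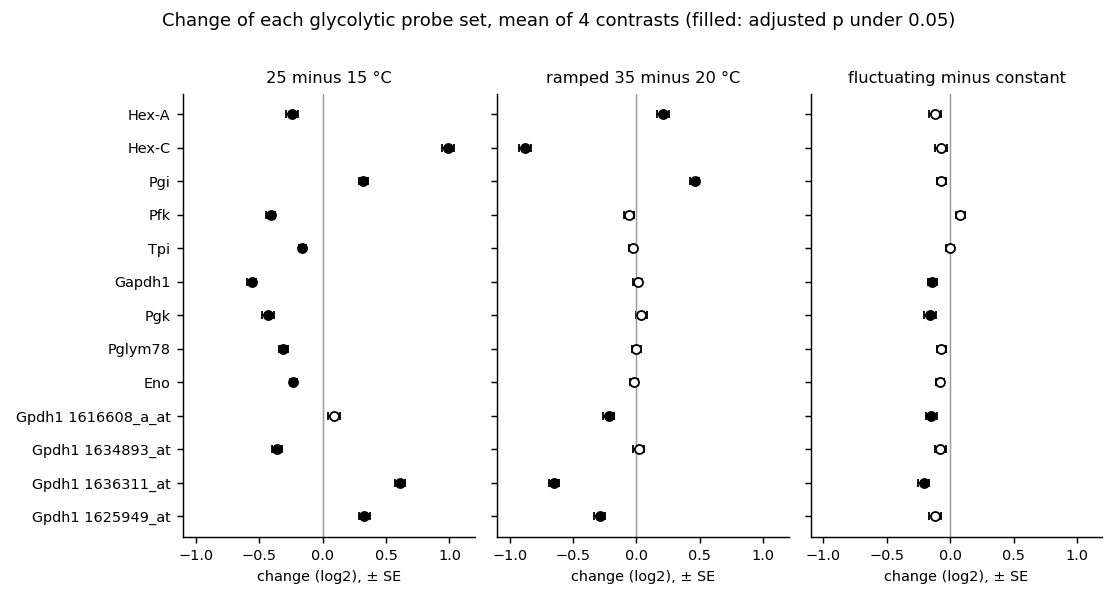
Change of each of the 13 glycolytic probe sets on the log2 scale, as the mean of 4 contrasts ± SE, for 25 minus 15 °C (left), ramped 35 minus 20 °C (middle) and fluctuating minus constant (right); filled points have an adjusted p under 0.05. Called were 12 of 13 probe sets for mean temperature, 6 for ramping and 4 for fluctuation, against 56.0%, 33.2% and 15.2% of all probe sets. Among these 13 probe sets, those from *Pfk* to *Eno* lay between -0.06 and 0.04 under ramping.

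The second question was what a heat ramp to 35 °C did to the same genes. Averaged over 4 contrasts, 6 of 13 probe sets differed between ramped flies and flies kept at 20 °C, 2 higher and 4 lower, and 33.2% of all probe sets did, 16.2% higher and 17.0% lower. *Hex-A* and *Pgi* were higher after the ramp and *Hex-C* and 3 probe sets of *Gpdh1* lower, while the 6 genes from *Pfk* to *Eno* were not called, with changes of -0.06 to 0.04 and SE of 0.029 to 0.045. Counted once per gene, 2 of the 10 members were higher and 2 lower, against 19.1% higher and 22.4% lower over all genes. The members were thus called about as often as all genes in each direction. Those called lay at the first steps of the pathway and on the branch to glycerol 3-phosphate. The counts in single contrasts were 4 of 13 at 25 °C in the fluctuating regime, against 16.6% of all probe sets, and 4 at 25 °C in the constant regime, against 18.5%. They were 5 at 15 °C in the fluctuating regime, against 13.5%, and 4 at 15 °C in the constant regime, against 14.5%. The count of 5 became 3 without array 2 of the ramped group.

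*Pgi* had levels of 13.03, 13.07 and 13.15 in ramped flies from the fluctuating 25 °C regime, against 12.51, 12.63 and 12.7 in those kept at 20 °C. In the constant 25 °C regime *Pgi* was at 13.13, 13.14 and 13.17 in ramped flies, against 12.46, 12.51 and 12.57 in those kept at 20 °C. In flies from 15 °C its levels were 12.64 and 12.68 (fluctuating) and 12.7, 12.78 and 12.79 (constant) after the ramp, against 12.14, 12.24 and 12.33 (fluctuating) and 12.36, 12.43 and 12.5 (constant) at 20 °C. Ramped arrays lay above the arrays kept at 20 °C in each regime, the change averaged 0.46 ± 0.036 (1.38-fold, adjusted p = 8.6e-10), and it was called in all 4 contrasts, as 3.80% of all probe sets were in this direction. *Pgi* was the only one of the 10 genes whose mean changes were called higher for both 25 °C and the ramp.

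*Hex-C* responded to the ramp in the opposite direction to its response to a warm mean temperature. From the levels given above, each ramped array from a regime lay below each array of that regime kept at 20 °C, and the change averaged -0.88 ± 0.048 (0.542-fold, adjusted p = 3.1e-12). It was called in all 4 contrasts, at -1.07 to -0.67, as 3.45% of all probe sets were in this direction. In the order of the 8 group means, flies from 25 °C kept at 20 °C came highest, at 11.49 (fluctuating) and 11.37 (constant), and ramped flies from 15 °C lowest, at 9.66 (constant) and 9.47 (fluctuating). The arrays of the ramped 25 °C groups, with means of 10.73 and 10.71, overlapped those of the 15 °C groups kept at 20 °C, with means of 10.5 and 10.73. *Hex-A* changed by 0.21 ± 0.046 (1.16-fold, adjusted p = 0.001), although no single contrast called it (adjusted p from 0.094 to 0.28). The change of *Hex-C* lay 1.09 below that of *Hex-A* (two-sided exact permutation test within regime and mean temperature, p = 1.25e-05; adjusted p = 1.7e-05 over 14 tests).

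Of the 11 fat body markers 1 was higher and 6 lower after the ramp, where 19.1% of all genes were called higher and 22.4% lower. In flies from 25 °C their summed levels were 14.81 to 14.97 (fluctuating) and 15.03 to 15.14 (constant) after the ramp. The levels at 20 °C were 15.12 to 15.17 and 15.25 to 15.39. In flies from 15 °C the summed levels were 14.32 to 14.37 (fluctuating) and 14.29 to 14.45 (constant) after the ramp. At 20 °C these flies had 14.71 to 14.77 and 14.76 to 14.8. Ramped and unramped arrays did not overlap in this sum in any regime. The summed level of the flight muscle markers was 15.15 to 15.92 in ramped flies and 15.15 to 15.94 in flies kept at 20 °C, and of these 13 genes *fln* (0.79) and *TpnC4* (0.81) were higher and *Mf* (-0.1) lower. Of the 20 testis and accessory gland markers 5 were lower after the ramp and none higher, *Acp62F* furthest at -0.65. The others lower were *Acp63F* (-0.17), *Dup99B* (-0.15), *SP* (-0.13) and *Acp53Ea* (-0.11), and no *Mst* gene of the list was called. The part of these tissue markers in the changes of *Hex-C* and *Gpdh1* was not tested. The flies kept at 20 °C stood in a water bath of their own, so the ramp and the bath cannot be told apart.

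*Gpdh1* encodes the cytosolic glycerol 3-phosphate dehydrogenase, which draws on the triose phosphates of glycolysis to reoxidise NADH and to make glycerol 3-phosphate for lipids. The gene is known to give several transcripts by alternative processing of its 3' part, with forms that differ between thorax and abdomen. The 4 probe sets were not assigned to transcripts here, since the files give no probe positions. At 25 against 15 °C their changes were 0.61 ± 0.042 for 1636311_at (1.53-fold, adjusted p = 1.4e-10), 0.33 ± 0.046 for 1625949_at (adjusted p = 1.9e-06), 0.09 ± 0.044 for 1616608_a_at (adjusted p = 0.087) and -0.36 ± 0.043 for 1634893_at (adjusted p = 2.4e-07). The gene therefore had probe sets called in both directions.

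*Gpdh1* 1636311_at had levels of 11.51, 11.63 and 11.71 in ramped flies from the fluctuating and 11.79, 11.85 and 11.86 in those from the constant 25 °C regime, against 12.02, 12.21 and 12.28 and against 12.23, 12.32 and 12.38 in the flies of these regimes kept at 20 °C. In flies from 15 °C, *Gpdh1* 1636311_at was at 10.77 and 10.8 (fluctuating) and at 11.13, 11.18 and 11.22 (constant) after the ramp, against 11.67, 11.72 and 11.77 (fluctuating) and 11.64, 11.83 and 11.95 (constant) at 20 °C. Ramped and unramped arrays did not overlap in any regime, and the ramp changed this probe set by -0.65 ± 0.042 (0.638-fold, adjusted p = 6.5e-11). *Gpdh1* 1634893_at ranged from 11.45 to 11.77 with a median of 11.55 at 25 °C, and from 11.81 to 12.09 with a median of 11.94 at 15 °C. Its arrays did not overlap between mean temperatures, and the ramp left it at a change of 0.02 ± 0.043 (adjusted p = 0.8). After the ramp 1625949_at changed by -0.29 ± 0.046 (adjusted p = 2.3e-05) and 1616608_a_at by -0.22 ± 0.044 (adjusted p = 0.00052). In the constant 15 °C regime the change of 1625949_at after the ramp was -0.28 (adjusted p = 0.038), and without the array that held egg shell transcripts it was -0.18 (adjusted p = 0.24).

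The differences between the changes of the *Gpdh1* probe sets were tested directly, over arrays, for the 6 pairs and for both factors. For mean temperature all 6 pairs differed, the widest being 1634893_at minus 1636311_at at -0.97 (two-sided exact permutation p = 1.25e-05) and the narrowest 1616608_a_at minus 1625949_at at -0.24 (p = 0.0001). For the ramp 5 pairs differed, the widest again being 1634893_at minus 1636311_at, at 0.67 (exact permutation p = 1.25e-05). The pair 1616608_a_at and 1625949_at differed by 0.08 under the ramp (two-sided exact permutation p = 0.0865; adjusted p = 0.087 over 14 tests), which was not beyond the spread between arrays.

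**Figure D3:**
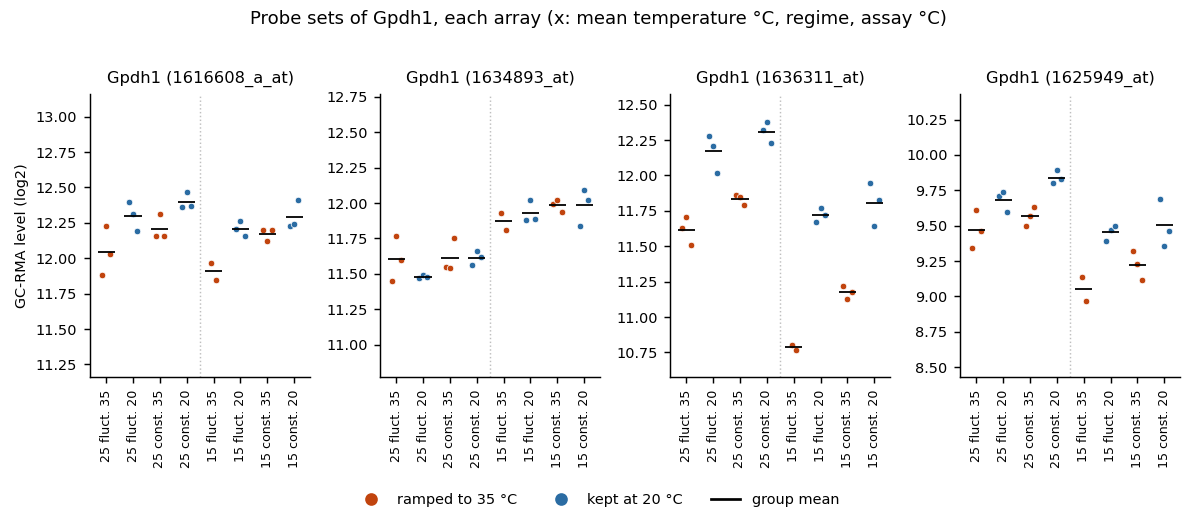
GC-RMA level (log2) of the 4 probe sets of *Gpdh1* on each of the 23 arrays, with groups, colours and lines as in the plot of the other enzymes and all panels of the same height in log2 units. In 1636311_at the ramped flies lie below the flies kept at 20 °C in each regime, while in 1634893_at the 12 arrays from 25 °C lie below the 11 from 15 °C, with a ramp effect of 0.02 ± 0.043. Over all probe sets, 8.69% have their arrays from 25 °C below all those from 15 °C.

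The third question was whether daily fluctuation around the same mean mattered. Averaged over 4 contrasts, 4 of 13 probe sets differed between fluctuating and constant regimes, all lower in the fluctuating ones, and 15.2% of all probe sets did, 8.82% higher and 6.41% lower. These were *Gpdh1* 1636311_at at -0.21 ± 0.042 (adjusted p = 0.0031), *Gapdh1* at -0.14 ± 0.037 (adjusted p = 0.018), *Pgk* at -0.16 ± 0.045 (adjusted p = 0.022) and *Gpdh1* 1616608_a_at at -0.15 ± 0.044 (adjusted p = 0.025). Without array 1 of the ramped fluctuating 15 °C group *Pgk* was not called (adjusted p = 0.053), and without array 2 of that group *Gpdh1* 1616608_a_at was not (adjusted p = 0.068). Of the tissue markers, 2 of 20 testis and accessory gland genes were higher and 6 lower with fluctuation, where 10.9% of all genes were called higher and 8.82% lower. The 2 higher were *Mst98Ca* and *Mst98Cb*, each at 0.16. The 6 lower were all *Acp* genes, from *Acp76A* at -0.58 to *Acp53Ea* at -0.13. In the same comparison 2 of 11 fat body genes were lower (*Npc2d* at -0.6 and *Lsp2* at -0.47) and 1 of 13 flight muscle genes was lower (*Act88F* at -0.33), and their part in the changes of the members was not tested. In single contrasts no probe set of the members was called at 25 °C, where limma called 1.05% of all probe sets in ramped flies and 0.938% in flies kept at 20 °C. At 15 °C *Gapdh1*, *Eno* and *Gpdh1* 1636311_at were lower in ramped flies from the fluctuating regime, against 2.22% of all probe sets called and 0.464% called lower, and *Pgk* was lower in those kept at 20 °C, against 2.16% called and 0.655% called lower. These 4 calls rested on few arrays. Without array 2 of the ramped fluctuating group, or without any 1 array of the ramped constant group, the count of 3 became 0, and without array 1 of the constant 15 °C, 20 °C group, the array with egg shell transcripts, *Pgk* had an adjusted p of 0.13. The call of *Pgk* was also lost without array 2 or without array 3 of that group. The same held for some arrays outside the contrast, such as array 1 of the constant 25 °C, 20 °C group.

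A contrast of contrasts tests whether fluctuation acted differently at both mean temperatures. It takes the change with fluctuation at 25 °C minus that at 15 °C, averaged over assay temperatures, and it called 3 of 13 probe sets, *Pgk*, *Gapdh1* and *Eno*, each with a positive value, while 2.91% of all probe sets were called, 1.09% with a positive value. For *Pgk* the levels in flies from 25 °C were 11.56, 11.63 and 11.68 (fluctuating) against 11.58, 11.61 and 11.72 (constant) after the ramp, and 11.51, 11.54 and 11.75 against 11.4, 11.53 and 11.63 at 20 °C. For *Pgk* in flies from 15 °C they were 11.77 and 11.93 (fluctuating) against 12.19, 12.22 and 12.25 (constant) after the ramp, and 11.68, 11.85 and 12.01 against 12.13, 12.21 and 12.22 at 20 °C. Fluctuating and constant arrays of *Pgk* overlapped at 25 °C and were apart at 15 °C, and the interaction was 0.39 ± 0.09 (adjusted p = 0.027).

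*Gapdh1* showed the same arrangement in flies from 15 °C, where the fluctuating arrays had 13.0 and 13.02 against 13.3, 13.36 and 13.4 in the constant regime after the ramp, and 12.89, 12.96 and 13.17 against 13.18, 13.26 and 13.27 at 20 °C. In flies from 25 °C *Gapdh1* had 12.47, 12.6 and 12.61 (fluctuating) against 12.59, 12.61 and 12.62 (constant) after the ramp, and 12.57, 12.65 and 12.72 against 12.5, 12.58 and 12.63 at 20 °C. The fluctuating arrays of *Gapdh1* lay below the constant ones at 15 °C and overlapped them at 25 °C, with an interaction of 0.3 ± 0.075 (adjusted p = 0.034). *Eno* had changes with fluctuation of 0.0 and 0.08 at 25 °C (ramped and at 20 °C) and of -0.24 and -0.14 at 15 °C, with an interaction of 0.23 ± 0.057 (adjusted p = 0.038). The calls for *Gapdh1* and *Eno* were lost without 13 and 15 of the 23 single arrays, with adjusted p up to 0.064 and 0.068, while *Pgk* was called in each case. *Hex-A*, *Hex-C*, *Pgi*, *Pfk*, *Tpi* and *Pglym78* had interactions of 0.09 to 0.28 that did not pass (adjusted p of 0.1 to 0.59), and neither did *Ald1*, the aldolase, at -0.19 (adjusted p = 0.4). Among the flight muscle markers, the summed level at 15 °C was 15.75 to 15.9 in the fluctuating and 15.87 to 15.94 in the constant regime, and at 25 °C it was 15.15 to 15.33 in the fluctuating and 15.18 to 15.24 in the constant regime. Of the 13 flight muscle genes *Act88F*, the actin of flight muscle, had a called interaction of 0.96 ± 0.18 (adjusted p = 0.01). Their part in these interactions was not tested. The interactions of ramping with mean temperature and with fluctuation called none of the 13 probe sets by limma, against 1.10% and 0.00% of all probe sets, and at an unadjusted p under 0.05 they held 3 and 1 of them, against 11.0% and 5.22% of all probe sets at that threshold.

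**Figure D4:**
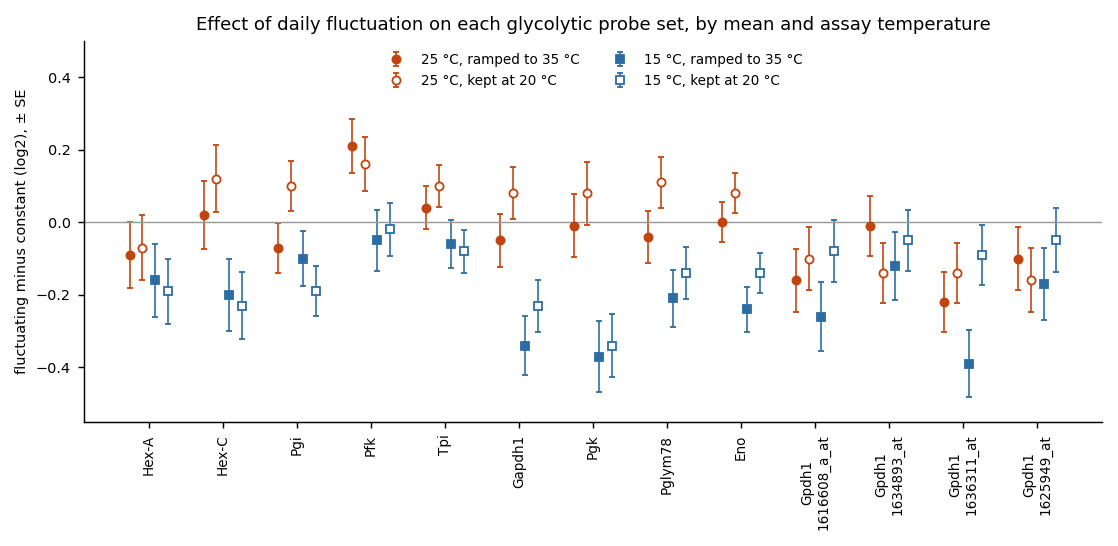
Change from the constant to the fluctuating regime (log2, ± SE) for each of the 13 glycolytic probe sets, in flies from 25 °C (red circles) and 15 °C (blue squares), after the ramp (filled) and at 20 °C (open). For *Pgk* the 15 °C values are -0.37 and -0.34 and the 25 °C values -0.01 and 0.08, while for *Hex-A* and for the *Gpdh1* probe sets both mean temperatures fall on the same side of 0.

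The share of the variation among the 8 group means that each factor carries describes the 3 patterns in 1 scale. Mean temperature carried 92.0% of it for *Gpdh1* 1634893_at, 86.7% for *Pfk*, 86.7% for *Gapdh1*, 82.9% for *Pglym78* and 79.3% for *Tpi*. Ramping carried 63.5% for *Pgi* and 56.1% for *Gpdh1* 1616608_a_at. *Hex-C* was divided between mean temperature (53.8%) and ramping (43.2%), as were *Gpdh1* 1636311_at (42.9% and 48.4%) and *Hex-A* (46.5% and 37.3%).

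Over these 8 means, which share their arrays and normalization, Pearson r was 0.975 between *Gapdh1* and *Pgk*, 0.980 between *Pgk* and *Pglym78*, 0.982 between *Pglym78* and *Eno*, and 0.958 between *Pfk* and *Tpi*. *Hex-C* and *Hex-A* ran against each other with r of -0.882. The single-symbol genes most like *Gapdh1* were *ATPsynD* (r = 0.996), an ATP synthase subunit, and *SdhB* (r = 0.994), a subunit of succinate dehydrogenase. Those most like *Pgk* were *NP15.6* (0.995) and *TFAM* (0.995), those most like *Pglym78* were *Gapdh1* (0.993) and *ND-20* (0.992), and those most like *Eno* were *CG14543* (0.993) and *ND-42* (0.990). Most like *Hex-C* were *alpha-Est10* (0.993) and *Pex16* (0.991), most like *Hex-A* were *CG3746* (0.978) and *Jra* (0.972), most like *Pgi* were *CG10904* (0.992) and *Gp93* (0.991), most like *Pfk* were *Nup54* (0.998) and *CG3919* (0.998), and most like *Tpi* were *Msh6* (0.991) and *Tbca* (0.988). For *Gpdh1*, taken by 1616608_a_at, they were *hdly* (0.978) and *CG14298* (0.970). These are correlations over 8 means and are given as a description.

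Other genes of sugar metabolism were counted once each, from lists chosen with earlier results of these data known. *Ald1*, the aldolase between *Pfk* and *Tpi*, was the only further glycolytic enzyme measured by a probe set of its own, and it was lower at 25 °C (-0.18 ± 0.064, adjusted p = 0.018). Its change after the ramp was 0.13 ± 0.064 and was not called (adjusted p = 0.12). *Ald2*, *PyK*, *Ldh* and *Gapdh2* were not measured here under a single symbol. Of 10 paralogs of glycolytic enzymes, among them the testis hexokinases *Hex-t1* (-0.46) and *Hex-t2* (-0.43) and the mutase *Pglym87* (-0.51), 9 were lower at 25 °C and none higher, against 34.3% lower and 35.5% higher over all genes, and *CG11249* fell furthest (-0.54). Of the 20 testis and accessory gland markers 18 were lower at 25 °C, and their part in this count was not tested. With fluctuation 4 of the 10 were higher, against 10.9% of all genes, *CG11249* by 0.35, *Hex-t1* by 0.29, *CG12229* by 0.23 and *CG7059* by 0.18. Among the 20 markers *Mst98Ca* and *Mst98Cb* were higher with fluctuation and 6 *Acp* genes lower, and their part in this count was not tested.

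Beside *Gpdh1*, whose probe sets were called in both directions, the 4 other genes of the glycerol phosphate shuttle measured were lower at 25 °C, with a median of -0.62, and none of the 4 was called under the ramp. They were *Gpdh3* (-0.66), *Gpdh2* (-0.62), *Gpo3* (-0.61) and *Gpo2* (-0.46), where *Gpo* genes encode the mitochondrial partner enzyme. Over all genes 34.3% were called lower at 25 °C. *Gpo1* was not measured here under a single symbol, so these 4 values leave it out. They come from whole males and do not show whether the change lies in flight muscle or in another tissue. The testis and accessory gland markers were mostly lower at 25 °C too, 18 of 20, and their part in the changes of these 4 genes was not tested.

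Of 5 genes of gluconeogenesis and phosphofructokinase control 4 were higher and none lower at 25 °C, against 35.5% higher and 34.3% lower over all genes. They were *fbp* (fructose bisphosphatase, which opposes *Pfk*) at 1.02, *Pepck1* at 0.75, *Pfrx* at 0.64 and *PCB* (pyruvate carboxylase) at 0.6. *Pfrx* sets the level of the *Pfk* activator fructose 2,6-bisphosphate. After the ramp *PCB* (-0.51), *Pepck1* (-0.45) and *Pfrx* (-0.35) were lower and *Pepck2* (0.23) higher, while *fbp* was at 0.02 (adjusted p = 0.8). All 4 measured genes of the pentose phosphate branch were higher at 25 °C, against 35.5% of all genes. Among them were *Taldo* (transaldolase) at 0.86, *Pgls* at 0.55 and *CG8036* at 0.54. *Taldo* (0.29) and *Rpi* (0.13) were also higher after the ramp, where 19.1% of all genes were called higher and 22.4% lower.

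Of 11 genes of glycogen and trehalose metabolism, 6 were higher and 4 lower at 25 °C, against 35.5% higher and 34.3% lower over all genes. *UGP*, which makes UDP-glucose, was higher at 25 °C (1.48 ± 0.074) and lower after the ramp (-1.52 ± 0.074), followed at 25 °C by *Pgm1* (0.71) and *Tps1* (0.63), the trehalose 6-phosphate synthase. *Pgm2a* (-0.38), the glycogen synthase *Glys* (-0.27) and the trehalose transporter *Tret1-2* (-0.26) were lower. Of the 11 genes only *UGP* had a called interaction of mean temperature with ramping, against 1.10% of all probe sets. Its change with the ramp at 25 °C minus that at 15 °C was -0.67 ± 0.15 (adjusted p = 0.028). The interaction of fluctuation with mean temperature was called with a positive value for 3 of the 11, against 1.33% of all genes, and *AGBE*, the glycogen branching enzyme, had an interaction of 0.54 ± 0.13, *Glys* of 0.42 ± 0.11 and *Pgm1* of 0.38 ± 0.097.

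At the exit of the pathway, *Pdk*, the kinase that switches off pyruvate dehydrogenase, was higher both at 25 °C (0.64 ± 0.032, adjusted p = 1.8e-12) and after the ramp (1.54 ± 0.032, adjusted p = 2e-19). The ramp change of *Pdk* at 25 °C minus that at 15 °C was -0.29 ± 0.064 (adjusted p = 0.029). This interaction was called for 1.10% of all probe sets. The other 3 genes of pyruvate entry measured were lower at 25 °C, *muc*, a subunit of pyruvate dehydrogenase, at -0.28, *Mpc1*, a subunit of the mitochondrial pyruvate carrier, at -0.24 and *Pdp* at -0.11, and after the ramp *Pdp* (-0.16) and *Mpc1* (-0.13) were lower. Of 8 transcription factors known to act on glycolytic genes, all were higher at 25 °C, where 35.5% of all genes were called higher and 34.3% lower. Among them were *sug* (0.83), *Mondo* (0.51), the glucose sensor, and *ERR* (0.42), which switches on glycolytic genes for larval growth. After the ramp *sug* (-1.02), *Mondo* (-0.5) and *tgo* (-0.26) were among 4 that were lower, against 22.4% of all genes. *foxo* (0.29) and *bigmax* (0.11) were higher after the ramp, against 19.1%.

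**Figure D5:**
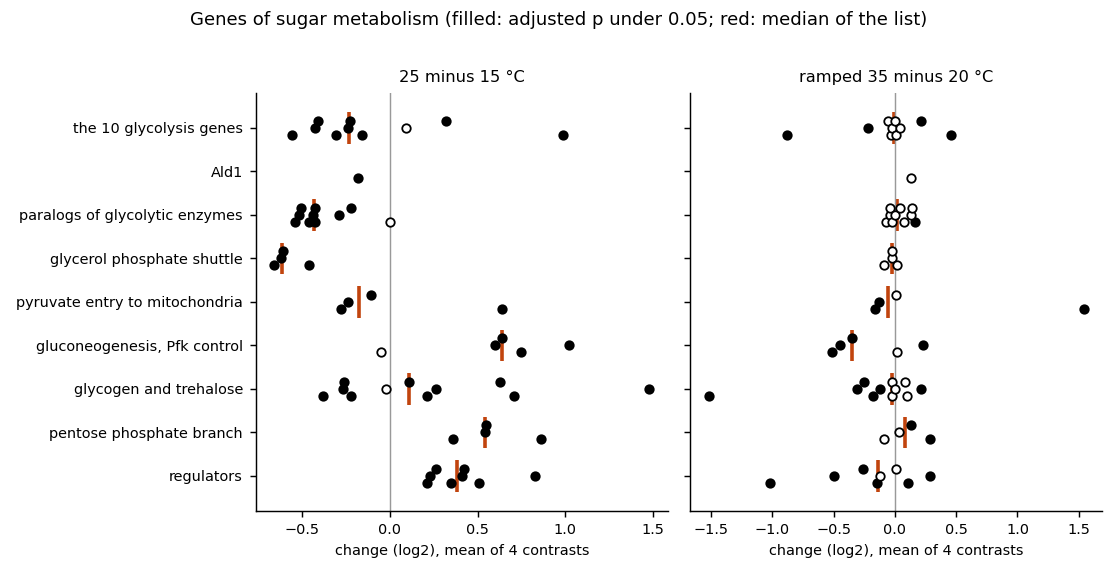
Change (log2, mean of 4 contrasts) of each gene of 9 lists of sugar metabolism, 1 probe set per gene, for 25 minus 15 °C (left) and ramped 35 minus 20 °C (right); filled points have an adjusted p under 0.05 and red bars are list medians. At 25 °C the medians are -0.23 for the 10 glycolysis genes and -0.62 for the 4 glycerol phosphate shuttle genes measured, which leave out *Gpo1*. They are 0.64 for gluconeogenesis and *Pfk* control and 0.55 for the pentose phosphate branch.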

How the data were processed

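The authors extracted RNA from male flies, hybridised it to 24 Affymetrix Drosophila Genome 2.0 arrays, and deposited log2 expression values after GC-RMA normalization in R (background from probe sequence, quantile normalization and a summary per probe set). Probe intensities were not used here. Arrays have no read depth, and their number limits the precision. Groups came from the array labels.

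The table holds 18952 probe sets, of which 183 controls were left out. Symbols came from the platform annotation, where 13647 probe sets carry 1 symbol, 402 several and 4720 none, and only the first were named. Group means of 8 groups were fitted with limma 3.58.1 (R 4.3.3; lmFit, contrasts, eBayes) on 23 arrays. Adjusted p-values are from limma, by Benjamini-Hochberg over 18769 probe sets within each contrast, and "called" means under 0.05. Each factor has 4 contrasts, and their mean is the change given unless a contrast is named. The fit was tested on simulated data. Summed marker levels are the log2 of the sum of unlogged values. Changes of 2 probe sets were compared by a two-sided exact permutation test over 80000 arrangements of labels within the 4 combinations of the other factors, adjusted over 14 tests. This test was added after the values were seen. Python 3.11.15 (pandas 2.3.3, numpy 2.4.6, matplotlib 3.10.9) was used for summaries and plots.

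The members and the gene lists were chosen with earlier results of these data known. Named genes are all members, up to 3 genes per list and direction with the largest mean change of a factor among those called, and for each member the 2 genes with the highest correlation. Others were named after their values were seen. Alternatives were all 24 arrays, 22 arrays, each array left out, the replicate number as a block, a variance trend, array weights, quantile normalization, median centring, a minimum mean of 4, the arrays of a contrast only, and 1 probe set per gene. Gene sequences were not used here.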

Additional observations from a re-analysis of the deposited data

Results flagged for a closer look

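The effect of daily fluctuation differed between mean temperatures by the interaction in the limma fit for 3 of the 13 glycolytic probe sets. The difference between 25 and 15 °C in the change with fluctuation was 0.39 for *Pgk* (1639766_at, adjusted p = 0.027), 0.3 for *Gapdh1* (1640907_at, adjusted p = 0.034) and 0.23 for *Eno* (1634065_s_at, adjusted p = 0.038). For each of the 3 genes both changes with fluctuation at 15 °C were negative, between -0.37 and -0.14, while those at 25 °C lay between -0.05 and 0.08 and were not called. The count of 3 became 1 without any one of 13 of the 23 arrays, 1 with the replicate number as a block and 2 with median centring, and *Pgk* was called in each of these fits. With all 24 arrays the count was 0, as it was over all 18769 probe sets, so that fit cannot separate these 3 genes from the rest.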

How the results depend on the processing

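With 1 array left out at a time, every called mean-temperature and ramping change of the members, averaged over 4 contrasts, was still called, as it was under each other setting except all 24 arrays. The precision is limited by 2 or 3 arrays per group, by the single cabinet of each regime and, in fluctuating 15 °C flies after the ramp, by the array left out. Over the 23 fits without 1 array, the counts of called members for 25 against 15 °C lay between 10 and 11 (constant, 20 °C), 12 and 12 (constant, 35 °C), 5 and 9 (fluctuating, 20 °C), 4 and 9 (fluctuating, 35 °C) and 12 and 13 (mean). For the ramp they lay between 3 and 4 in both regimes of 25 °C, 3 and 6 in the fluctuating and 3 and 5 in the constant regime of 15 °C, and were 6 for the mean. For fluctuation they lay between 0 and 2 (15 °C, 20 °C), 0 and 4 (15 °C, 35 °C), 0 and 0 (25 °C, 20 °C), 0 and 1 (25 °C, 35 °C), 3 and 5 (mean) and 1 and 3 (interaction with mean temperature), and the other interactions gave 0 each time.

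With all 24 arrays, the counts were 0, 0, 0 and 2 for 25 against 15 °C (constant 20 °C, constant 35 °C, fluctuating 20 °C, fluctuating 35 °C) and 4 for their mean. Over all 18769 probe sets this fit called 373 higher and 445 lower in the first of these contrasts, and 496 and 623 in the second. It called 221 and 148 in the third and 879 and 579 in the fourth. For the mean it called 2272 higher and 1540 lower, against 5420 and 5091 in the fit on 23 arrays. For the ramp the counts of members were 2 in the fluctuating 15 °C regime, 0 in the other 3 and 2 for the mean. Over all probe sets the ramp called 218 higher and 258 lower in the fluctuating 15 °C regime, and 770 and 1062 by the mean. In the constant 15 °C regime it called 106 and 139. At 25 °C it called 182 and 192 (constant) and 191 and 181 (fluctuating). For fluctuation at 15 °C, its mean and its interaction with mean temperature the members had counts of 0. Over all 18769 probe sets fluctuation at 15 °C and the interaction gave 0 too, and the mean gave 14 higher and 2 lower. With all 24 arrays, 10 called values changed sign. At 25 against 15 °C in the fluctuating regime after the ramp *Pfk* was at 1.23, *Gapdh1* at 1.68 and *Gpdh1* 1634893_at at 0.76, in the mean of this factor *Hex-A* was at 0.22, *Eno* at 0.27, *Tpi* at 0.37 and *Pgk* at 0.14, and for the ramp *Pgi* was at -1.57 (15 °C fluctuating), and by the mean *Hex-A* at -0.25 and *Pgi* at -0.04. The array added has a narrow spread of values, as given above.

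With 1 probe set per gene, the counts out of 10 became 5 and 5 for 25 against 15 °C in the fluctuating regime (20 and 35 °C). Over all genes, 22.7% were called higher and 23.3% lower at 20 °C, and 17.4% and 24.1% at 35 °C. For the ramp the counts became 3 in the fluctuating 15 °C regime and 2 in both constant regimes, out of 10. Over all genes the ramp called 9.46% higher and 7.33% lower (fluctuating 15 °C), 7.38% and 11.1% (constant 15 °C) and 10.5% and 13.3% (constant 25 °C). With only the arrays of a contrast, the counts of probe sets were 4 for 25 against 15 °C (fluctuating, 35 °C) and 3 for the ramp (15 °C fluctuating). They were 0 for fluctuation at 15 °C in both assays. This setting gives no means or interactions. Fluctuation at 15 °C and 20 °C also gave 0 with 22 arrays, with median centring and with the replicate number as a block. With array weights, fluctuation gave 0 at 15 °C after the ramp and 3 at 25 °C after the ramp, where *Gpdh1* 1634893_at was at 0.18 (adjusted p = 0.013), and mean temperature by ramping gave 2; the cause was not tested.

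The replicate numbers do not pair the arrays: the deviations of same-numbered arrays correlated with a median r of 0.0012 over 77 pairs, against 0.0032 over 154 pairs of different numbers. With the replicate block, 1 member was called for fluctuation at 15 °C after the ramp and 1 for the interaction of mean temperature and fluctuation, where *Gapdh1* had an adjusted p of 0.059 and *Eno* of 0.063. The permutation tests between probe sets were repeated without each array in turn, an alternative added after seeing the data: the difference between *Gpdh1* 1616608_a_at and 1625949_at under the ramp had exact permutation p up to 0.21, and the other 13 tests had p up to 0.00047.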
